A study of Homo sapiens with 6 samples.

Results

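The H3K9me3 peak list of PC-3 cells after 24 h of TGF-β1 was set against the list after 6 h. All peaks outside chromosome Y were taken from both lists, which gave 264 of 272 peaks at 24 h and 1220 of 1220 at 6 h. Together these were 1484 of the 2826 peaks in the lists of the series. PC-3 is a human prostate cancer cell line that was established from a metastasis in bone. Cells of both groups were deprived of serum for 24 h and then exposed for 6 h or 24 h to 5 ng/mL of TGF-β1. Chromatin was crosslinked, and fragments carrying H3K9me3 were pulled down with an antibody and sequenced. Each time point had 1 immunoprecipitated (ChIP) library and 1 input library, with no replicate, so differences between the times are described without a test. Peak names in both treated lists carry a word for filtered alignments that is missing from the untreated control list, which is therefore used here only as a reference.

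H3K9me3 is histone H3 with 3 methyl groups on lysine 9. It is bound by HP1 proteins and marks constitutive heterochromatin, above all the satellite repeats beside centromeres, and it also covers silenced transposons and clusters of KRAB zinc finger genes. TGF-β1 is a secreted cytokine that signals through SMAD proteins and, in epithelial tumour cells, induces matrix genes and a shift toward a mesenchymal state.

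The 2 lists differed in length and in the kind of peak they held. The 6 h list was 4.62 times as long as the 24 h list and covered 375.8 kb against 75.9 kb. Its peaks were mostly weak ones on the chromosome arms. At 24 h, 131 of 264 peaks (49.6%) had a −log10 q of 5 or more and were no farther than 2 Mb from a gap in the assembly at a centromere or heterochromatin block. The authors' −log10 q, the caller's adjusted significance of a peak within its own library, had a median of 10.7 at 24 h (exact 95% interval of the median 6.17 to 15.7) and of 2.42 at 6 h (2.31 to 2.52). A −log10 q of 5 or more was reached by 159 of the 24 h peaks (60.2%) and by 8.85% of the 6 h peaks, so the shorter list held more of them. The numbers reaching 100 were 44 and 18. The authors' fold enrichment went the other way. It equals the summit pileup plus 1 fragment over the local background plus 1 fragment, which lowers the fold of peaks with few fragments. Its median was 3.11 at 24 h (2.91 to 3.31) and 4.10 at 6 h (4.05 to 4.13), and its highest value 8.19 and 25.3. Folds, −log10 q and the values solved from them belong to a peak within its own list. Where 2 lists are set side by side below, the difference is no measure of a change in the mark.

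**Figure D1:**
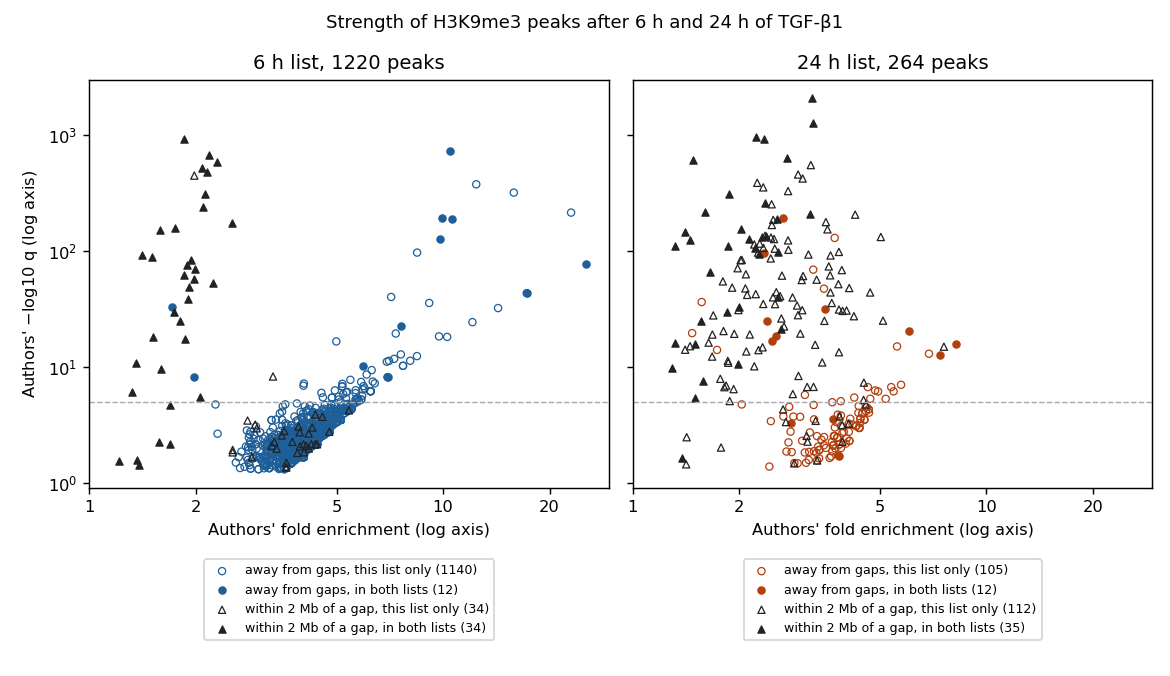
Each point is a peak, with the authors' fold enrichment on the horizontal and −log10 q on the vertical axis (both log), in the 6 h list (left) and the 24 h list (right). Triangles lie no more than 2 Mb from a gap at a centromere or heterochromatin block, filled symbols overlap a peak of the other list, and the dashed line is a −log10 q of 5. At 6 h most points form a dense cloud under the line at folds near 4, while at 24 h triangles with folds of about 2 to 3 spread far above it.

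Behind each fold stands a number of sequenced fragments at the summit, which was solved from the fold and −log10 p. The median summit had 119 fragments at 24 h and 14 fragments at 6 h. The lowest local background of each list, taken as its genome-wide level, was 2.66 fragments at 24 h and 1.73 at 6 h, a ratio of 1.54. Relative to that level, the median summit stood at 44.7 times at 24 h and 8.11 times at 6 h, and the median local background at 12.5 times and 1.44 times. Among peaks whose local background equalled the genome-wide level, the lowest summit called had 13 fragments at 24 h, 4.88 times the background. At 6 h it had 10 fragments, or 5.80 times. In these relative terms the weakest peaks of the 24 h list thus lay lower than those of the 6 h list. Library depth cannot be read from peak lists, and its part in their lengths was not tested.

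Few positions were common to the 2 times. Of the 24 h peaks, 47 of 264 shared at least 1 bp with a 6 h peak (17.8%, exact 95% interval 13.4 to 22.96). In the other direction 46 of 1220 did (3.77%, 2.77 to 5.00), since 1 wide 6 h peak overlapped 2 peaks at 24 h. Overlap was most frequent among the strongest peaks of both lists, by −log10 q. Of the 18 peaks at 6 h with a −log10 q of at least 100, 14 had a 24 h peak (77.8%, 52.4 to 93.6), and of the 22 between 20 and 100, 16 did (72.7%, 49.8 to 89.3). Of the 788 between 2 and 5, only 3 did (0.381%, 0.0786 to 1.11). Under 2 it was 4 of 324 (1.23%, 0.337 to 3.13). Seen from 24 h, the share was 21 of 44 peaks (47.7%, 32.5 to 63.3) at a −log10 q of at least 100 and 2 of 80 (2.50%, 0.304 to 8.74) between 2 and 5. Under 2 it was 2 of 25 (interval 0.984% to 26.0%), so the lowest class of neither list had the lowest share. Overlap did not follow the fold in this way. When each list kept only folds at or above its own median, 3.79% of the 24 h peaks and 0.816% of the 6 h peaks overlapped the other list. These intervals allow for counting error alone, and peaks beside each other are not independent observations.

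**Figure D2:**
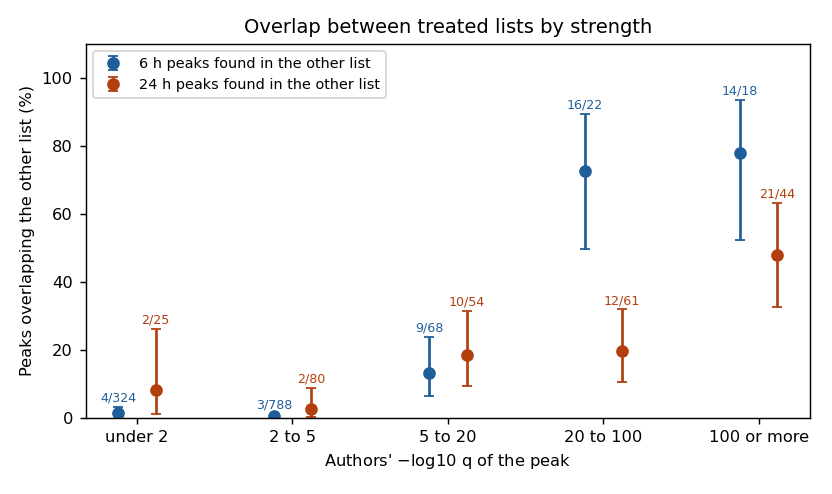
Share of peaks that overlap the other treated list by at least 1 bp (vertical axis, percent) in classes of the authors' −log10 q (horizontal axis), for 6 h peaks (blue) and 24 h peaks (orange). Bars are exact 95% binomial intervals, labels give overlapping peaks of all peaks in the class, and at 6 h the share is 4 of 324 in the lowest class, 3 of 788 in the next and 14 of 18 in the highest.

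Peaks that missed the other list seldom had a close neighbour in it, except for 24 h peaks near gaps. Among the 217 peaks of 24 h with no 6 h peak, 16 had one within 1 kb and 45 within 10 kb. Within 10 kb it was 41 of 112 near gaps (36.6%) and 4 of 105 away from them (3.81%). The median distance to the nearest 6 h peak was 57.7 kb near gaps and 256.3 kb away from them. Among 1174 peaks of 6 h with no 24 h peak, 14 had one within 10 kb and 312 (26.6%) within 1 Mb.

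Centromeres and the large heterochromatin blocks of chromosomes 1, 9 and 16 are gaps in the hg19 assembly, and the sequence beside them is rich in satellite repeats. Of the 24 h peaks, 147 lay within 2 Mb of such a gap (55.7%, 49.5 to 61.8), against 68 at 6 h (5.57%, 4.35 to 7.01). More peaks near gaps were thus called at 24 h than at 6 h, in the treated list with fewer peaks in all. The untreated control list had 417 of 1237 near gaps (33.7%, 31.1 to 36.4), more in number than either treated list. The peaks near gaps made up 58.3% of the covered length at 24 h and 6.95% at 6 h. By chromosome, 15 had more of them at 24 h, 4 had more at 6 h and 4 had equal numbers. Chromosome 16 led at 24 h, with 38 against 11, followed by chromosome 10 with 19 against 10, chromosome 8 with 13 against 6 and chromosome 2 with 12 against 4. Chromosome X had 6 at 24 h and 0 at 6 h. The order was turned on chromosome 20, with 4 at 24 h and 7 at 6 h, and on chromosome 15, with 0 and 5.

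The strong pericentromeric peaks of the 6 h list were nearly all in the 24 h list too. Of the 30 peaks at 6 h near gaps with a −log10 q of at least 5, 28 overlapped a 24 h peak (93.3%, 77.9 to 99.2). Of the 38 weaker ones 6 did (15.8%, 6.02 to 31.3). The reverse did not hold. Of 131 peaks at 24 h near gaps with a −log10 q of at least 5, 34 had a 6 h peak (26.0%, 18.7 to 34.3), and 82 of the other 97 had a peak in the untreated control. The median summit of all 112 peaks near gaps that the 6 h list lacked stood at 99.7 times the genome-wide background of the 24 h library, on a local background of 39.3 times. This was lower than the 492 times of the 35 that had a 6 h peak. The 112 were not alike. The 85 with a control peak had a median summit of 142.7 times, and the 27 without one 14.3 times. The highest −log10 q among the 112, 554, belonged to chr7:61970279-61970523, with 2717 fragments and a fold of 3.19. It was followed by chr10:42388274-42388521 (−log10 q 459, fold 2.93) and chr2:92325056-92325291 (−log10 q 424, fold 3.02). The next were chr18:18517125-18517735 (−log10 q 389.8), chr10:42398556-42398867 (−log10 q 356) and chr2:92307232-92307469 (−log10 q 331). Each of these 6 also overlapped a control peak.

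Many peaks beside gaps stood in dense groups. Clusters were runs of 6 or more peaks, from either treated list, with no more than 100 kb between neighbours. Near gaps most peaks were from 24 h, so clusters there were found mainly through that list. Their counts are therefore a description and support nothing further. The 8 clusters near gaps held 78 peaks at 24 h, 27 at 6 h and 119 in the control, and 7 of them had more peaks at 24 h than at 6 h. The largest, chr16:46385944-46435532 at the edge of the heterochromatin block of the long arm, held 32 peaks at 24 h, covering 9606 bp, and 9 at 6 h, covering 3467 bp. All 9 of the 6 h peaks overlapped a 24 h peak. On chromosome 10 the cluster 42356682 to 42402105 held 12 and 6, and again each of the 6 overlapped. The chromosome 2 cluster 92269399 to 92325291 held 10 and 1. A second chromosome 10 cluster, 42529306 to 42625646, held 5 and 3, and the chromosome 18 cluster 18511060 to 18520288 held 6 and 2. A pair of smaller clusters is added after their values were seen. On chromosome X, the 6 treated peaks from 61687316 to 61721079 were all from 24 h, and the control list had 19 there. The exception to the order was chr8:43092869-43097041, with 3 peaks at 24 h and 4 at 6 h. Its peak chr8:43094761-43095253 had a −log10 q of 449.7 and 5559 fragments at 6 h, and it was the sole 6 h peak near a gap with a −log10 q of at least 20 that the 24 h list lacked.

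Where peaks of both lists overlapped near a gap, their summits mostly lay close together, which the choice by overlap in part ensures. In the 35 overlapping pairs the summits were a median of 11 bp apart, and 27 lay within 50 bp. The farthest were 609 bp apart. Median widths were 305 bp at 24 h and 344 bp at 6 h, and in 7 pairs both edges agreed within 10 bp. Summit pileups stood at a median of 492 times the genome-wide background at 24 h and 468 times at 6 h, and were higher at 24 h in 20 of 35 pairs. The local background had medians of 238 and 276 times, and was higher at 24 h in 12 of 35. The fold was higher at 24 h in 25 of 35 pairs. The highest −log10 q of the 24 h list, 2091, was at chr10:42596895-42597168, with 10138 fragments and a fold of 3.20. Its 6 h partner, chr10:42596904-42597171, had 5191 fragments, a −log10 q of 593 and a fold of 2.29. The next highest −log10 q among paired 24 h peaks were all on chromosome 10, 1287 at 42395946 to 42396209, 967 at 42599615 to 42599910, 929 at 42385037 to 42385693 and 634 at 42387157 to 42387397. The most fragments in either list were at chr1:121485119-121485338, with 20846 at 24 h and a fold of 1.48, and 13825 at 6 h and a fold of 1.85.

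**Figure D3:**
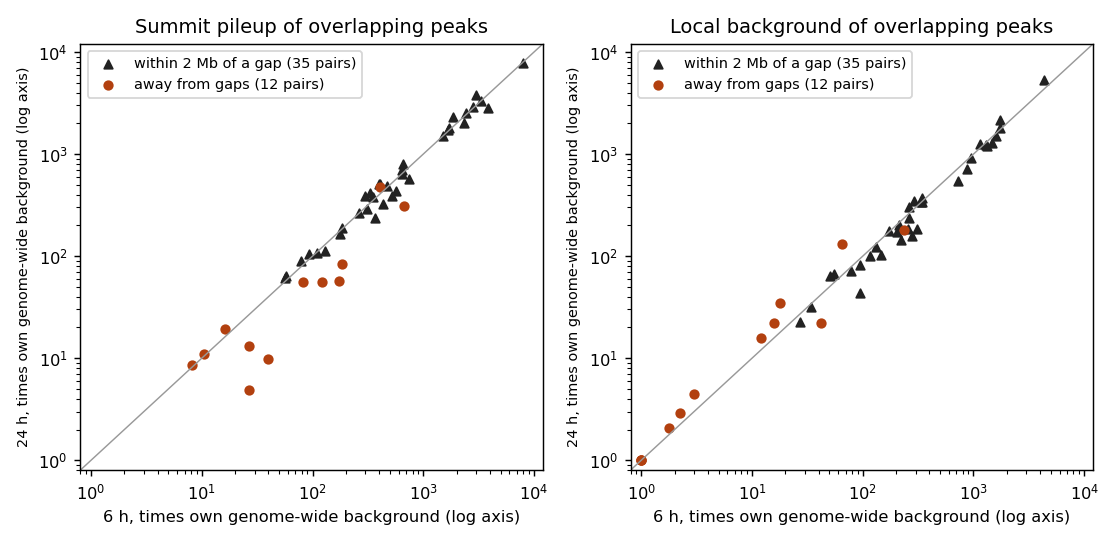
The 47 overlapping pairs of peaks, with the 6 h value on the horizontal and the 24 h value on the vertical axis (both log), for the summit pileup (left) and the local background (right), each as a multiple of the genome-wide background of its own library. Near gaps (triangles) the pairs follow the line of equality, with 20 of 35 pileups above it, while 8 of the 12 pairs away from gaps (circles) lie under it in the left panel.

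Away from gaps the 6 h list had 1152 peaks and the 24 h list 117, a ratio of 9.85. In both lists these were mostly close to the caller's threshold. Of all 6 h peaks, 1074 (88.0%) lay away from gaps with a −log10 q under 5, and their median summit held 14 fragments. At 24 h there were 89 such peaks (33.7%), with a median of 18 fragments. Exactly 1 of the 1074 overlapped a 24 h peak and 8 overlapped a control peak, so 1065 were in neither other list. Of those 89 at 24 h, 85 were in neither. Of the peaks away from gaps whose −log10 q was 5 or more, 11 of 78 at 6 h had a 24 h peak (14.1%, 7.26 to 23.8) and 9 of 28 at 24 h had a 6 h peak (32.1%, 15.9 to 52.4).

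Peaks of the arms were unevenly spread in both lists. At 6 h the long arm of chromosome 8 held 173 of them, or 1.77 per Mb, where all arms together had 0.416 per Mb, and the short arm held 4. It was followed by 14q with 124 peaks (1.44 per Mb), 18p with 19 (1.41 per Mb), 11q with 80 (1.02 per Mb) and 10q with 76 (0.833 per Mb). Arms 4p, with 0, and 6q, with 2, had the fewest per Mb. At 24 h, where all arms together had 0.0422 per Mb, 18p (3 peaks, 0.223 per Mb), 10p (5 peaks, 0.134 per Mb), 8q (13 peaks, 0.133 per Mb) and 14q (11 peaks, 0.127 per Mb) were densest. The 3 peaks on 18p lay together between 108012 and 110724, near the chromosome end, and their median local background was 207 times the genome-wide level. On 15q the 6 h list had 38 peaks and the 24 h list 0, and on 20q 23 and 0. Across the 41 arms, peaks per Mb in the 2 lists had a Pearson r of 0.661 and a Spearman rho of 0.477, given as a description. The arms share the libraries, and many hold few 24 h peaks. The local background at the 6 h peaks followed this order on some arms only. Its median was 1.59 times the genome-wide level on 8q and 2.16 times on 14q, against 1.16 times on 3q and 1.08 times on 8p. Other arms went otherwise. The sparse 9q (0.0948 per Mb) had 1.71 times, and 10p (0.644 per Mb) had 2.73 times, more than the denser 8q and 14q. The part of the local background in the counts was not tested. With peaks of −log10 q of at least 5 alone, 8q held 5 at 6 h and 14q 5, against 7 on 1q, 3q and 5q each. Of the 7 on 3q, 5 lay in the gene ATR, and those on 1q included peaks in S100A8 and S100A9.

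**Figure D4:**
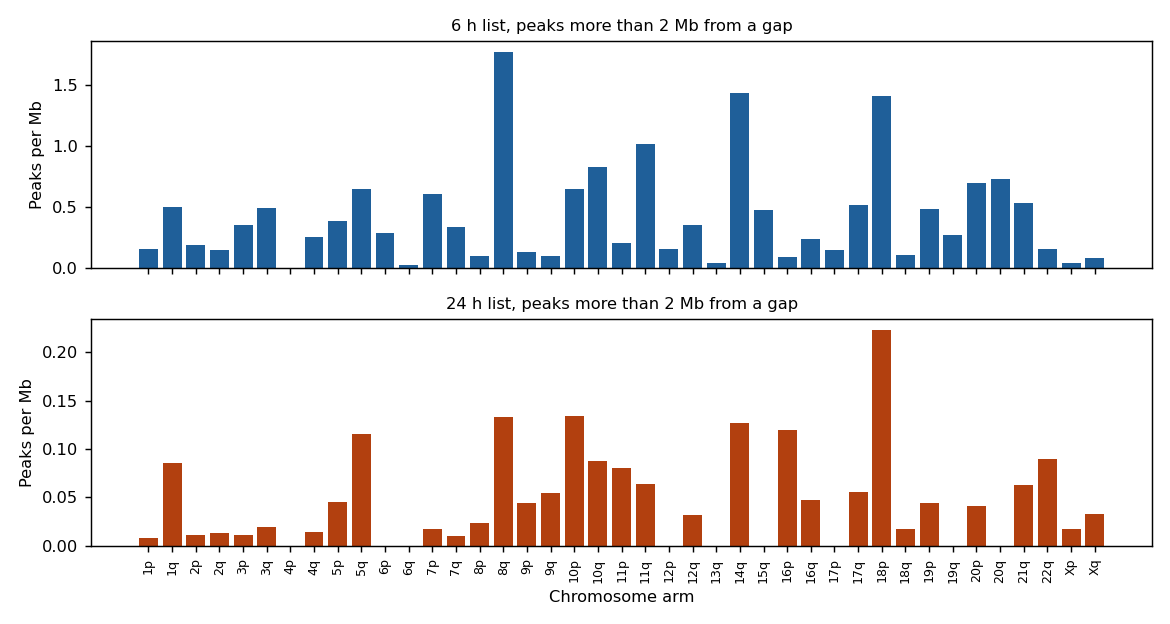
Peaks per Mb (vertical axis) on each of 41 chromosome arms (horizontal axis), counting peaks more than 2 Mb from a gap, at 6 h (top) and 24 h (bottom). The vertical scales differ. The bar of 8q stands highest at 6 h (1.77 per Mb), and 18p, with 3 peaks, at 24 h.

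In both lists, some of the stronger peaks away from gaps lay in a small set of genes. These genes were placed on hg19 from general knowledge of that assembly, and all of them were chosen with peaks of these lists already known, so their counts support nothing further. Of the 78 peaks at 6 h with a −log10 q of at least 5 away from gaps, 26 overlapped one of these genes, and 12 of the 17 with a −log10 q of at least 20 did. At 24 h the numbers were 7 of 28 and 4 of 9, and the highest −log10 q away from gaps lay outside these genes. It was 193 at chr4:68265488-68266031, which had a peak in all 3 lists and was chosen after its value was seen. In the plot of summit pileups by gene, the 24 h list has no symbol at 10 of 18 genes or loci, and its symbol lies left of the 6 h symbol at 7 of the other 8. S100A8, S100A9, B2M, ACTB and UBB were chosen through their 6 h peaks. Part of the 6 h counts and of the missing 24 h symbols was set by that choice.

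**Figure D5:**
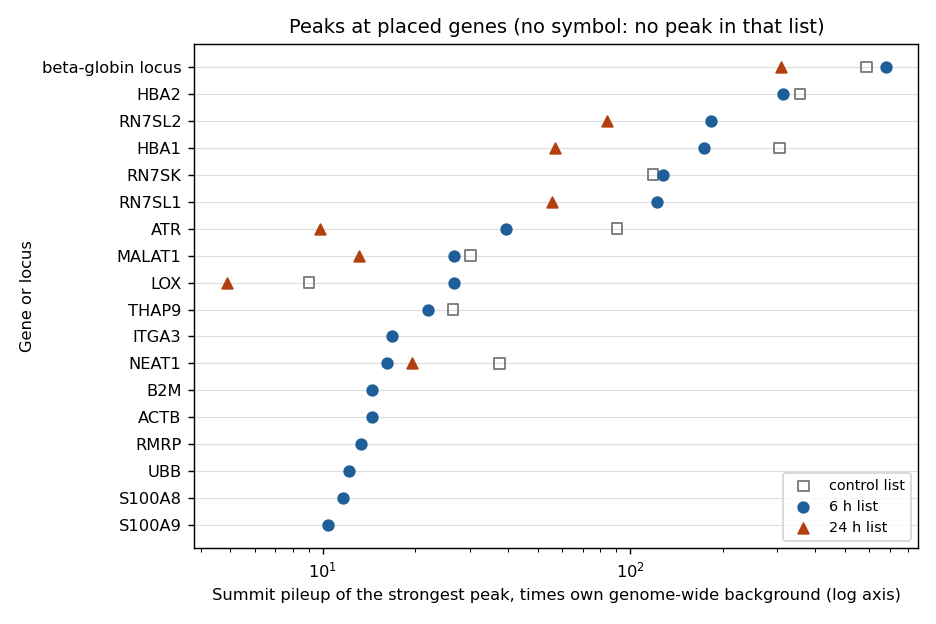
Summit pileup of the strongest peak that overlaps each gene or locus, as a multiple of the genome-wide background of its own library (horizontal axis, log), in the control (squares), 6 h (circles) and 24 h (triangles) lists; a missing symbol means no peak. The 24 h symbol lies left of the 6 h symbol wherever both are present, except at NEAT1.

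LOX encodes lysyl oxidase, a secreted enzyme that crosslinks collagen and elastin and is a known TGF-β target. The gene had a peak at both times. At 6 h it ran over chr5:121412506-121413174, with 46 fragments at the summit, a fold of 17.2 and a −log10 q of 43.4. At 24 h it was 193 bp wide, chr5:121412980-121413172, with 13 fragments, a fold of 3.82 and a −log10 q of 1.72. The local background equalled the genome-wide level in both. The control peak there had 17 fragments and a fold of 5.05. The right edges of the treated peaks were 2 bp apart and the left edges 474 bp apart. ITGA3, which encodes the integrin alpha-3 subunit of a laminin receptor, had a peak at 6 h alone, chr17:48163177-48163447, with 29 fragments and a fold of 9.74.

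ATR, which encodes a kinase of the DNA damage response, held 5 peaks at 6 h and 1 at 24 h. At 6 h their folds ranged from 7.70 to 25.3. The peak chr3:142281074-142281952 had 68 fragments and the highest fold of that list. The peak chr3:142274719-142275417, with 46 fragments and a fold of 17.2, had no 24 h partner. At the former position the 24 h peak began at the same base and ended 61 bp earlier, with 26 fragments and a fold of 7.37. The control list had 16 peaks in this gene, among them all 5 positions of the 6 h list. THAP9, a gene derived from a DNA transposase, had 2 peaks at 6 h and none at 24 h. The stronger, chr4:83838161-83839984, was 1824 bp wide, with a fold of 14.3. Its summit had 38 fragments, and the local background was at the genome-wide level. The control list had 3 peaks in THAP9, and the one overlapping this position had 50 fragments and a fold of 17.4.

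Globin genes, which encode the chains of haemoglobin and are silent in prostate epithelium, carried peaks of very high pileup. At the beta-globin gene the 6 h peak chr11:5247807-5248326 had 1168 fragments on a local background of 64.3 times the genome-wide level, with a fold of 10.4. The 24 h peak chr11:5247893-5248282 lay inside it and had its summit at the same base. It held 825 fragments on a local background of 132 times, and its fold was 2.34. The control peak there had 1106 fragments, a local background of 288 times and a fold of 2.03. A second 6 h peak in the gene, chr11:5246699-5246957, had 401 fragments and a fold of 15.9, with no 24 h peak. At the alpha-globin genes, HBA2 had a peak at 6 h alone, chr16:223147-223705, with 543 fragments and a fold of 12.4. HBA1 had peaks at both times, with 299 fragments and a fold of 10.6 at 6 h and 152 fragments and a fold of 2.54 at 24 h. The strongest control peaks in HBA2 and HBA1 had 673 and 578 fragments, with folds of 1.68 and 1.54. HBA1 and HBA2 are near-identical copies, so reads could be placed on either, and their values are uncertain. Elsewhere in the beta-globin region both lists had a peak starting at chr11:5221581, with 18 fragments and a fold of 6.97 at 6 h and 29 fragments and a fold of 8.19 at 24 h, the highest fold of the 24 h list. The 24 h list alone had chr11:5259199-5260000, with a fold of 5.46.

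Genes for abundant noncoding RNAs formed a further group. RN7SL1 and RN7SL2, near-identical copies that encode the RNA of the signal recognition particle, had peaks at both times and none in the control. At 6 h RN7SL1 had 211 fragments and a fold of 9.80, and RN7SL2 317 fragments and a fold of 9.92. At 24 h they had 148 and 223 fragments, with folds of 3.49 and 2.39. Both 24 h peaks lay inside the 6 h peaks, which were 278 bp wide each. Reads could be placed on either copy, so the split between them is uncertain. RN7SK, whose RNA holds the elongation factor P-TEFb inactive, had a peak at 6 h, chr6:52860432-52860712, with 221 fragments and a fold of 23.02, and no peak at 24 h. A control peak inside the 6 h one had 224 fragments and a fold of 3.26. The local background was 36.0 times the genome-wide level in the control and 5.01 times at 6 h. RMRP, the RNA of the RNase MRP complex, had a peak at 6 h, with 23 fragments and a fold of 6.08, and none at 24 h or in the control. RPPH1, the RNA of RNase P, had none in either list.

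NEAT1 and MALAT1 are neighbouring long noncoding RNA genes whose products stay in the nucleus, NEAT1 as the scaffold of paraspeckles. Their cluster, chr11:65190329-65273487, held 8 peaks at 6 h, covering 10167 bp, and 2 at 24 h, covering 1083 bp. The control list had 9 peaks over the same stretch. Its strongest peaks had 71.0 fragments in NEAT1 and 57.0 in MALAT1. The other large cluster away from gaps, chr14:73229319-73556330, held 7 at 6 h and 2 at 24 h, none of them overlapping. The widest peak of either list, chr11:65266560-65271450, lay in MALAT1 at 6 h and was 4891 bp wide, with 46 fragments at its summit. The 24 h peak inside it, chr11:65267256-65267934, was 679 bp wide with 35.0 fragments. At the start of NEAT1 the peaks were alike, with 28 fragments and a fold of 5.93 at 6 h and 52 fragments and a fold of 6.05 at 24 h. Relative to background the 6 h summit stood at 16.2 times and the 24 h summit at 19.5 times, the only gene plotted with the higher relative pileup at 24 h.

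Further 6 h peaks, named after their values were seen, lay in S100A8 and S100A9, which encode calgranulins of myeloid cells, in B2M, the invariant chain of MHC class I, in ACTB, the cytoplasmic beta-actin gene, and in UBB, a polyubiquitin gene. Their strongest peaks had 20, 18, 25, 25 and 21 fragments, in that order. None of these genes had a peak at 24 h or in the control. The local background equalled the genome-wide level at S100A8 and S100A9.

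Outside these genes, the highest folds present at 6 h alone included chr2:221410943-221411183, with 32 fragments and a fold of 12.1. By −log10 q, chr5:115434548-115434767 led among the peaks with no named gene away from gaps, with 180 fragments, a fold of 8.45 and a −log10 q of 97.4. It overlapped a control peak. Among peaks of 24 h alone the folds were lower. The highest was 7.58, at chr20:26302304-26302515, close to the centromere gap, with 30 fragments. It was followed by chrX:153774882-153775203 (fold 6.88, 29 fragments), chr5:161594903-161595224 (fold 5.73, 20 fragments), chr16:33046762-33047013 (fold 5.59, 42 fragments) and chr1:234925609-234925815 (fold 5.38, 21 fragments). Of these 5, the one on chromosome X overlapped a control peak. Away from gaps, 1 peak of 24 h alone had a −log10 q of 130, chr1:569302-569507, chosen after its value was seen. It lies in a stretch where the nuclear genome carries a copy of mitochondrial DNA.

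By the median, peaks were somewhat wider at 6 h. The median was 235.5 bp at 24 h (224 to 242) and 263.0 bp at 6 h (258 to 268), and the narrowest peaks were 192 bp and 208 bp. Near gaps the medians were 236 bp and 285 bp, and away from gaps 234 bp and 262 bp. For peaks with a −log10 q of 5 or more they were 241 bp at 24 h and 342 bp at 6 h. Peaks of at least 500 bp made up 5.68% of the 24 h list and 5.90% of the 6 h list. Wide peaks were shared more often than narrow ones, with 12 of 15 at 24 h (80.0%, 51.9 to 95.7) against 35 of 249 narrower peaks (14.1%). At 6 h the numbers were 15 of 72 (20.8%, 12.2 to 32.0) and 31 of 1148 (interval 1.84% to 3.81%). A wide peak meets the rule of 1 shared bp more easily. Wide peaks were also stronger, with a median −log10 q of 29.8 against 7.93 at 24 h and 3.16 against 2.33 at 6 h. The part of strength in their sharing was not tested. The single peak of more than 1 kb at 24 h, chr6:58776383-58779342 beside the centromere, was 2960 bp wide and had a 6 h partner of 2984 bp.

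Regions known for H3K9me3 outside pericentromeres were counted as well. The zinc finger windows of chromosome 19 from 20 to 24 Mb and from 53 to 58 Mb held 0 peaks at 24 h and, at 6 h, 0 in the first and 2 in the second. The protocadherin window of chromosome 5 that starts at 140 Mb and spans 1 Mb held 0 in both. Over 10 Mb in all, the counts are too few to set these windows apart from the arms, which had 0.416 peaks per Mb at 6 h and 0.0422 at 24 h. Within 5 Mb of chromosome ends lay 10 peaks at 24 h (3.79%, 1.83 to 6.86) and 40 at 6 h (3.28%, 2.35 to 4.44). The 5S ribosomal RNA array of chromosome 1 had no peak in either treated list and 6 in the control, and the REXO1L array of chromosome 8 had 1 at 6 h, 0 at 24 h and 26 in the control.

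Seen from the untreated control, the 2 treated lists stood apart as a whole, but less so among their strongest peaks. Of the 24 h peaks, 135 of 264 overlapped a control peak (51.1%), and of the 6 h peaks 64 of 1220 did (5.25%). At a −log10 q of at least 100 it was 43 of 44 at 24 h and 15 of 18 at 6 h. Between 20 and 100 it was 56 of 61 and 21 of 22. Under 5 and away from gaps, where most 6 h peaks lay, it was 3 of 89 and 8 of 1074. Of the 24 h peaks also found at 6 h, 42 of 47 had a control peak. This held for all 35 near gaps and for 7 of the 12 away from them. The other 5 lay at chr11:5221581-5222270, RN7SL1, RN7SL2, chr8:132938272-132938531 and HBA1, where a control peak, chr16:226711-227067, lay in the gene but did not overlap the 24 h peak.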

How the data were processed

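H3K9me3 ChIP-seq of PC-3 cells was used as 1 deposited peak list per ChIP library. The series has 6 libraries, 3 ChIP and 3 input. The submitters' processing notes list MACS2 2.1.1.20160309, BWA, Trimmomatic and FastQC 0.11.9, and the build hg19. Thresholds and parameters: not given in the sources used here. The deposited columns give start, end, a score (10 times −log10 q, rounded down), fold enrichment (a linear ratio), −log10 p, −log10 q and summit offset. Positions are 1-based.

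Summit pileup and local background were solved from −log10 p and fold with the Poisson tail that MACS2 uses, after the solver had been tested on simulated data. All 192 peaks at 24 h and 1189 at 6 h whose digits sufficed (to 0.005 fragments) gave whole fragments within 0.01. Overlap meant at least 1 bp. Intervals are exact (Clopper-Pearson for shares, order statistics for medians). Members, gene list and tests were chosen with earlier results of these data known. Gap positions, chromosome lengths and 22 gene positions on hg19 were entered from general knowledge. Of 19 genes in RefSeq (GRCh38), 17 agree in length within 5%; S100A8 and UBB differ by more. No hg19 sequence was at hand, so none is printed. Peaks named are the 6 highest by fold and by −log10 q in each class (24 h only, 6 h only, both), the 6 largest clusters (with a tie) and peaks at placed genes; others are marked as picked once values were known. Alternatives tried were other thresholds, list sizes, overlap rules and gap definitions. Python 3.11.15, numpy 2.4.6, scipy 1.17.1 and pandas 2.3.3 were used.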

Additional observations from a re-analysis of the deposited data

How the results depend on the processing

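No paired analysis was possible because there is just 1 library at each time. The values below are the overlap of 24 h peaks, the overlap of 6 h peaks, the share near gaps at 24 h and that at 6 h, in this order. For −log10 q of 5 or more they were 23.9%, 34.3%, 82.4% and 27.8%. Keeping the upper part of each list by fold gave 3.79%, 0.816%, 31.1% and 1.79%. Reducing the 6 h list to the 264 peaks of highest −log10 q gave an overlap of 6 h peaks of 15.2% and a 6 h share near gaps of 13.3%. Reducing it by highest fold gave an overlap of 24 h peaks of 3.41% and a 6 h share near gaps of 0.758%. Counting peaks within 1 kb as shared gave an overlap of 24 h peaks of 23.9%, and leaving out peaks near gaps gave overlaps of 10.3% and 1.04%. With 5 Mb as the limit, 62.1% and 10.9% lay near gaps. With 1 Mb the 6 h share was 4.10%, and with centromere gaps alone the 24 h share was 42.05%. With −log10 q of 5 or more the median fold was 2.54 at 24 h and 5.66 at 6 h, and the median width at 6 h was 342 bp. Without peaks near gaps the median fold at 24 h was 3.72. The share near gaps was higher at 24 h in each setting run for both lists. Of all alternatives, 11 stayed within the interval of the reported value and 23 moved outside it. The causes were not tested. These intervals, for shares and medians alike, treat the peaks of 1 library as independent and are narrower for longer lists. The tally is therefore a description. Read totals are not in the lists, so depth is known only as the background level solved from them.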
